A study of Mus musculus with 10 samples.

Results

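Haemoglobin and red cell genes were taken as the 6 genes Hba-a1, Hba-a2, Hbb-bs, Hbb-bt, Alas2 and Slc4a1, chosen by symbol as a readout of the blood held in a piece of lung. They were 6 of 47333 genes in the deposited table, and all 6 were among the 18024 genes that passed the filter on low counts. RNA came from the right middle lobe of the lung of 10 mice, all of the C57BL/6J strain, 12 weeks old and untreated (naïve). The 5 KO mice lacked Bpifb1, a secreted protein of the airway lining, and the 5 WT mice carried the intact gene. The KO group held 1 male (replicate 1) and 4 females, and the WT group held 2 males (replicates 2 and 3) and 3 females. Genotypes shared cages. The deleted part of Bpifb1, and whether blood was flushed from the vessels, were not given in the sources used here.

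Haemoglobin is a tetramer of alpha and beta globin chains, each holding a haem group that binds oxygen. Mature red cells have no nucleus and make no new mRNA, but the youngest of them, the reticulocytes, still carry globin mRNA made in the bone marrow, so blood left in an organ brings these transcripts with it. Alas2 is the erythroid enzyme of the rate-limiting step of haem synthesis, and Slc4a1 encodes band 3, the chloride and bicarbonate exchanger that anchors the red cell membrane to its cytoskeleton.

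The alpha chain genes lie in tandem on chromosome 11 in GRCm38, Hba-a1 (ENSMUSG00000069919) at 32283511 to 32284465 and Hba-a2 (ENSMUSG00000069917) at 32296489 to 32297298, both on the plus strand. The beta chain genes lie on the minus strand of chromosome 7, Hbb-bs (ENSMUSG00000052305) at 103826534 to 103828096 and Hbb-bt (ENSMUSG00000073940) at 103812524 to 103813996. Alas2 (ENSMUSG00000025270) spans 150547375 to 150570638 on the plus strand of chromosome X, and Slc4a1 (ENSMUSG00000006574) spans 102348824 to 102366203 on the minus strand of chromosome 11.

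Within each chain type the copies are close to identical, which bears on how reads of 50 bases are shared between them. In the GENCODE M21 transcripts the coding sequences of Hba-a1 and Hba-a2, 426 bases each, differed at 1 position, C381T counted from 1 at the start codon and read from Hba-a1 to Hba-a2. Those of Hbb-bs and Hbb-bt, 441 bases each, differed at C417T, read from Hbb-bs to Hbb-bt. Neither change alters a residue. The stretches of 31 bases around these positions are shown because they are the only coding sequence that tells the copies apart, with the differing base in capitals.
Hba-a1: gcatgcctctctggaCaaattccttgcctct
Hba-a2: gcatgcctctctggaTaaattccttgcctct
Hbb-bs: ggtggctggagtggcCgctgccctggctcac
Hbb-bt: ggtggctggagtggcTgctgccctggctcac
Of all windows of 50 bases, 67.5% of those in the Hba-a1 transcript also occurred in Hba-a2, and 86.9% of those in Hba-a2 occurred in Hba-a1. For Hbb-bs and Hbb-bt the shares were 65.8% and 58.3%. The division of counts within a pair is therefore uncertain, while the sum of a pair is less exposed to it.

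The promoters of 5 members were in the RefSeq table of GRCm38.p6 and are shown to compare their motifs. No promoter of Slc4a1 was available there. Whether these sequences bear on the levels in lung was not tested. Each window runs from 150 bases before to 20 bases after the RefSeq start, 170 bases in all. For Hba-a1 and Hbb-bs the whole window lies inside the gene span given above, so GENCODE and RefSeq place the start differently. Capitals mark matches, on either strand, to CACCC, the core bound by Klf1 and related factors, to CCAAT, to GATAA, a form of the GATA factor motif, and to TATAA.
Hba-a1 (chr11:32283522-32283691, plus strand): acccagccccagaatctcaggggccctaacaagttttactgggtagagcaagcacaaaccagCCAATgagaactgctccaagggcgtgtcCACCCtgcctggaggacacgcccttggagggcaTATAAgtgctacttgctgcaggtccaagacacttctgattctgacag
Hba-a2 (chr11:32296342-32296511, plus strand): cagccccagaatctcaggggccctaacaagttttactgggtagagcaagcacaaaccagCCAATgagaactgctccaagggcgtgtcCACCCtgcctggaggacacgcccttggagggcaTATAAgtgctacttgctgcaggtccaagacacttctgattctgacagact
Hbb-bs (chr7:103827909-103828078, minus strand): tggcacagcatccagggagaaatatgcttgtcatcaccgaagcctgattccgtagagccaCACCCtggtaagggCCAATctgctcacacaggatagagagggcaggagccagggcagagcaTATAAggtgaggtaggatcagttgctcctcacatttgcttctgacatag
Hbb-bt (chr7:103813904-103814073, minus strand): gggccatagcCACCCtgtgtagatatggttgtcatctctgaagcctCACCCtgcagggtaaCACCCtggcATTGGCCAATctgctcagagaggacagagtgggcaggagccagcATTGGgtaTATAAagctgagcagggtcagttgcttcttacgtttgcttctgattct
Alas2 (chrX:150547267-150547436, plus strand): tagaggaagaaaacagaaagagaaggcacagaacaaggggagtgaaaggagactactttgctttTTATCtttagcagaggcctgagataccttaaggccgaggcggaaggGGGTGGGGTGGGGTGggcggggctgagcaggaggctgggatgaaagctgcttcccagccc
CACCC was found in 5 of the 5 windows and in 40.5% of the 32851 RefSeq promoters searched over the same length. CCAAT and TATAA were each found in 4 of 5, the globin genes, against 26.3% and 15.2% of all promoters. GATAA was found in 1 of 5, Alas2, against 14.8%. The 2 alpha globin windows were identical over 167 aligned positions when shifted by 3 bases, whereas those of Hbb-bs and Hbb-bt had the same base at 71% of 169 positions. A match is a string of letters and was not tested as a binding site.

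Library totals ran from 21357424 to 28321294 estimated counts per mouse. The tissue label was met by its markers: the type 2 cell gene Sftpc stood at 12634 to 17378 CPM (counts per 1000000 counts of the library), the type 1 cell gene Ager at 2026 to 2742 CPM, the club cell gene Scgb1a1 at 21118 to 27505 CPM and the endothelial gene Pecam1 at 624 to 792 CPM. The genotype labels were met as well, with Bpifb1 at 0.217 to 1.26 CPM in the KO group and 28.1 to 79.5 CPM in the WT group (edgeR adjusted p = 0.0275). KO replicate 5, labelled female, had Xist at 1.78 CPM, against 273 to 407 CPM in the other females, and 0 counts over 4 Y-linked genes, so the sex results of the members and the counts over gene lists are also given without it.

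Per kilobase of transcript the globin genes were among the most abundant RNAs of the lobe. On the scale of CPM per kilobase, Hba-a2 stood at 9450 ± 1540, Hbb-bs at 7950 ± 1420, Hba-a1 at 3800 ± 627 and Hbb-bt at 1200 ± 164 (SD, n = 10), at ranks 4, 6, 11 and 29 of 47281 genes. Alas2 followed at 73.2 ± 11.1 (rank 875) and Slc4a1 at 1.93 ± 0.506 (rank 13326). The ranges of Hba-a2 (7860 to 13300) and Hbb-bs (6800 to 11400) overlapped over mice, and no other neighbours in this order did. The depth behind these values differed too: Hba-a2 had at least 100408 counts in each library and Slc4a1 112 to 282, so that counting error alone was at most 0.316% of the Hba-a2 count but 5.95% to 9.45% of the Slc4a1 count.

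The alpha globin genes varied by less than 2-fold over the 10 mice, and most of that spread lay within the WT group. Hba-a1 measured 2504, 2702, 2534, 2746 and 2630 CPM in KO replicates 1 to 5, and 2220, 3669, 2942, 2042 and 2581 CPM in WT replicates 1 to 5. Hba-a2 measured 5024, 5173, 5117, 5203 and 4886 CPM in the KO mice and 4557, 7353, 5905, 4357 and 4785 CPM in the WT mice, in the same order. For both genes the 2 WT males were the highest of all mice and WT replicate 4 the lowest, and every KO value lay inside the WT range. The log2 fold change of KO over WT, adjusted for sex, was 0.05 for Hba-a1 (SE 0.11, 95% interval -0.2 to 0.3, edgeR adjusted p = 0.861) and 0.01 for Hba-a2 (SE 0.1, interval -0.2 to 0.22, edgeR adjusted p = 0.983). In bulk tissue, fewer red cells and less RNA per red cell cannot be told apart, for these or any other member.

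The beta globin genes showed the same order of mice at the top. Hbb-bs measured 4479, 4847, 4907, 5066 and 4313 CPM in KO replicates 1 to 5, and 4414, 7184, 5766, 4270 and 4683 CPM in WT replicates 1 to 5. Hbb-bt, the less abundant copy, measured 872, 835, 771, 879 and 744 CPM in the KO mice and 721, 1072, 983, 719 and 840 CPM in the WT mice. WT replicates 2 and 3 were again the highest, WT replicate 4 the lowest, and the groups overlapped. Genotype log2 fold changes were -0.07 for Hbb-bs (SE 0.11, 95% interval -0.31 to 0.17, edgeR adjusted p = 0.792) and -0.0018 for Hbb-bt (SE 0.08, interval -0.17 to 0.17, edgeR adjusted p = 0.995).

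Alas2 followed the globin genes at a lower level. It measured 159, 144, 137, 155 and 135 CPM in KO replicates 1 to 5 and 121, 198, 169, 126 and 147 CPM in WT replicates 1 to 5. The groups overlapped, and the 3 males held the 3 highest values. Its genotype log2 fold change was 0.03 (SE 0.08, 95% interval -0.14 to 0.2, edgeR adjusted p = 0.881). The annotated span of Apex2, a DNA repair gene on the opposite strand, covers all 23264 bases of Alas2, and whether counting used strand was not given in the sources used here.

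Slc4a1 was the least abundant member and the most variable. It measured 11.1, 9.56, 5.9, 9.19 and 10.3 CPM in KO replicates 1 to 5, and 5.08, 11.1, 11.2, 6.9 and 7.28 CPM in WT replicates 1 to 5. The 3 males again held the highest values, while KO replicate 3 and WT replicate 1, both female, were the lowest, and the groups overlapped. Its genotype log2 fold change was 0.31 (SE 0.16, 95% interval -0.03 to 0.65, unadjusted p = 0.0741, edgeR adjusted p = 0.34). The coefficient of variation between mice was 26.2% for Slc4a1 against 13.7% to 17.8% for the other members. Its counting error of 5.95% to 9.45% was also the highest of the 6 and is part of that spread.

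**Figure D1:**
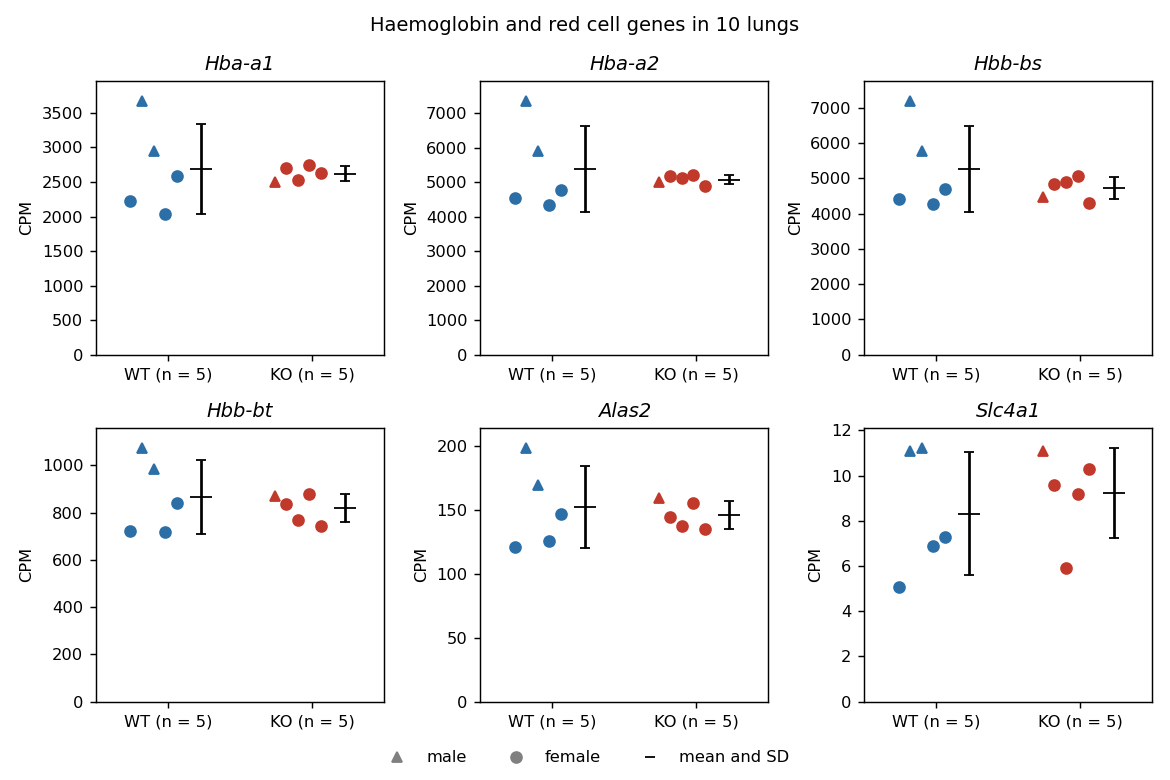
CPM (vertical axis, from 0) of each member in the 5 WT mice (blue) and 5 KO mice (red), triangles for males and circles for females, with black bars for the mean and SD of each group. WT replicates 2 and 3, the WT males, sit at the top of every panel, and the KO values fall inside the WT range.

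By edgeR's quasi-likelihood test 0 of the 6 members were called between genotypes at an adjusted p under 0.05, where 0.0222% of all 18024 tested genes were, and 0 of 6 had an unadjusted p under 0.05, against 17% of all tested genes. DESeq2 and limma-voom also called 0 of 6, where they called 346 and 2 of all tested genes. The KO and WT ranges were apart for 0 of 6 members and for 1.88% of all tested genes. Of the 6 log2 fold changes 4 were above 0, with a median of 0.02, beside 49.3% of all tested genes above 0 and a median of 0.0. Expressed as folds, the 95% intervals of KO over WT ran from 0.808 to 1.23 over the 4 globin genes, from 0.907 to 1.15 for Alas2 and from 0.976 to 1.57 for Slc4a1. A missed threshold does not show equal levels.

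The near-zero differences depended on how the uneven sexes were treated. Without the sex covariate the log2 fold change was -0.04 for Hba-a1, -0.09 for Hba-a2 and -0.06 for Alas2. In that setting it was -0.16 for Hbb-bs, -0.08 for Hbb-bt and 0.15 for Slc4a1. Among females alone, with 4 KO and 3 WT mice, every member was higher in KO. The log2 fold changes were 0.22 for Hba-a1, 0.16 for Hba-a2, 0.1 for Hbb-bs, 0.09 for Hbb-bt, 0.12 for Alas2 and 0.44 for Slc4a1. Their edgeR adjusted p ran from 0.294 to 0.661. Unadjusted edgeR p was 0.022 for Hba-a1, 0.037 for Hba-a2 and 0.0427 for Slc4a1, and 0.143 to 0.302 for the others. The KO female range lay above the WT female range for 1 of 6 members, Hba-a2 (4886 to 5203 against 4357 to 4785 CPM), as it did for 6.28% of all tested genes, and the ranges of the other 5 overlapped. With KO replicate 5 dropped as well, the values were 0.22, 0.18, 0.15, 0.12, 0.15 and 0.36 in the same order of genes (edgeR adjusted p of 0.477 to 0.63), a setting added after seeing the data. Leaving out KO replicate 1, the only KO male, gave the 6 values of all females alone again. That match follows from the design and is no separate result, since males are then found only in WT.

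By sex 6 of 6 members lay on one side, with 48.3% of all tested genes above 0 in males. Males exceeded females by a log2 fold change, adjusted for genotype, of 0.3 for Hba-a1, 0.33 for Hba-a2, 0.3 for Hbb-bs, 0.31 for Hbb-bt, 0.36 for Alas2 and 0.61 for Slc4a1, or 1.23-fold to 1.52-fold. Unadjusted p was under 0.05 for 6 of 6 members, where 15.1% of all tested genes had such a p and 7.34% had it in the male direction. The members are not 6 independent readings. Copies of a chain can share reads, and the members rose and fell together across mice (Pearson's r of 0.463 to 0.982). With adjustment over all genes 0 of 6 were called by edgeR, against 0.583% of tested genes. The smallest adjusted p was 0.0769, for Alas2, the only member under 0.1, where 1.95% of tested genes fell, and the others ran from 0.111 to 0.274.

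The 3 males had Alas2 at 159 to 198 CPM, above the 121 to 155 CPM of the 7 females (difference 0.36 on the log2 scale, SE 0.09). They had Slc4a1 at 11.1 to 11.2 CPM, above the 5.08 to 10.3 CPM of the females (difference 0.61 on the log2 scale, SE 0.17). For these 2 of 6 members the male range lay above the female range, as it did for 2.26% of all tested genes, and for the 4 globin genes the ranges overlapped, since KO replicate 1 lay among the females. DESeq2's Wald test called 4 of 6 members higher in males, namely Hba-a2 (adjusted p = 0.0495), Hbb-bt (adjusted p = 0.018), Alas2 (adjusted p = 0.00766) and Slc4a1 (adjusted p = 0.0273), where it called 2.42% of all genes. edgeR without the low count filter called 1 of 6, Alas2 (adjusted p = 0.0383), against 0.641% of all genes.

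One library carried much of the globin difference by sex. Without WT replicate 2 the male minus female log2 fold change was 0.15 for Hba-a1, 0.18 for Hba-a2 and 0.14 for Hbb-bs, and 0.24 for Hbb-bt, 0.26 for Alas2 and 0.56 for Slc4a1. Without KO replicate 1 the 6 values rose to 0.54, 0.54, 0.54, 0.44, 0.48 and 0.79, in the same order of genes. Without KO replicate 5, whose Xist level went against its label, they were 0.31, 0.33, 0.29, 0.3, 0.35 and 0.65. A dependence of the sex difference on genotype was not tested, as the KO group held 1 male.

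**Figure D2:**
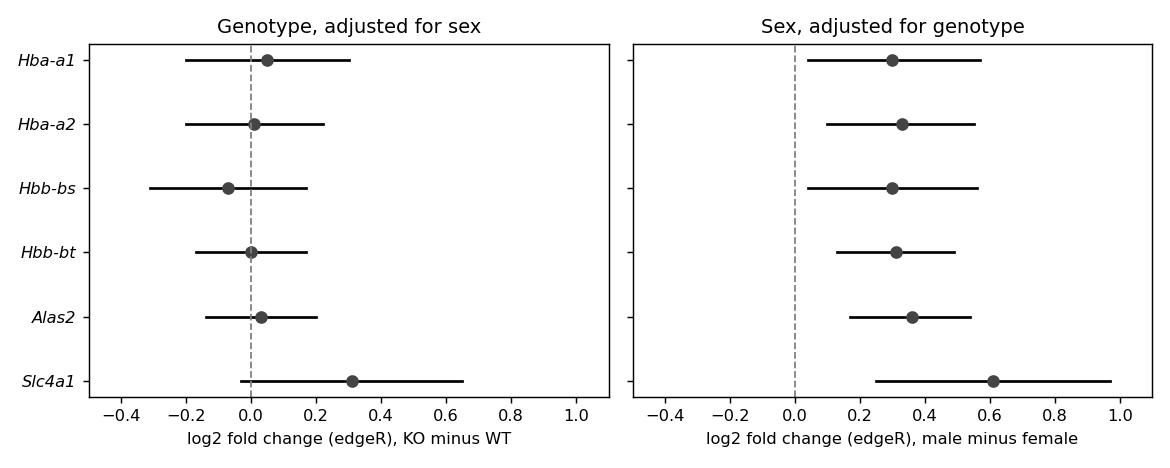
Log2 fold changes from the edgeR fit (points) with 95% intervals (lines) for each member, KO minus WT adjusted for sex on the left and male minus female adjusted for genotype on the right, with the dashed line at 0. Genotype intervals include 0 for all 6 members, and sex intervals, which are not adjusted for multiple genes, lie above 0 for all 6.

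Together the 4 globin genes took 1.3, 1.36, 1.34, 1.37 and 1.28% of all counts in KO replicates 1 to 5 and 1.2, 1.83, 1.56, 1.14 and 1.32% in WT replicates 1 to 5. The mean was 1.33% ± 0.0407 in KO and 1.41% ± 0.285 in WT mice (SD, n = 5 each), a coefficient of variation of 3.06% against 20.2%. WT replicate 2 was the highest and WT replicate 4 the lowest, and the KO values fell between them. Without WT replicate 2 the WT mean was 1.3% ± 0.186 (n = 4), still a wider spread than in KO. The 2 WT males held the top of the WT range, and among females the spread was 1.34% ± 0.0425 in KO (n = 4) and 1.22% ± 0.0913 in WT (n = 3). These are descriptions of 5 mice a group, and the spreads were not tested against each other.

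The balance of beta to alpha globin counts is shown because the 2 chains are paired in haemoglobin. It was 0.7109, 0.7216, 0.7422, 0.7479 and 0.6729 in KO replicates 1 to 5 and 0.7576, 0.7491, 0.7627, 0.7798 and 0.7499 in WT replicates 1 to 5. Every KO value lay below every WT value, but KO replicate 4 and WT replicate 2 were 0.7479 and 0.7491, and KO replicate 5 was the lowest of all. The means were 0.719 ± 0.0299 in KO and 0.76 ± 0.0125 in WT mice (SD, n = 5 each). Per kilobase the ratio was 0.63 to 0.6995 in KO and 0.7 to 0.7253 in WT mice. This ordering was noticed in the values, among several ratios of these genes, and was given no test. KO and WT ranges were apart for 1.88% of all single tested genes, and no such share was computed for ratios. With copies summed, the genotype log2 fold change was 0.02 for alpha and -0.06 for beta globin (edgeR adjusted p = 0.941 and 0.814). The ratio by counts is the same however counts are divided within a pair of copies.

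Within each chain type the shares were steady. Hba-a2 took 65.0 to 68.1% of alpha globin counts and Hbb-bs 83.7 to 87.0% of beta globin counts over the 10 mice, with overlapping genotypes. Alas2 stood at 10.1 to 12.4 counts per 1000 globin counts, highest in KO replicate 1. Slc4a1 was less tied to globin, at 0.426 (95% Wilson interval 0.354 to 0.513) counts per 1000 globin counts in WT replicate 1, 0.442 (0.372 to 0.526) in KO replicate 3 and 0.861 (0.766 to 0.968) in KO replicate 1. These intervals, which cover counting error only, do not reach from the lowest mice to the highest.

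**Figure D3:**
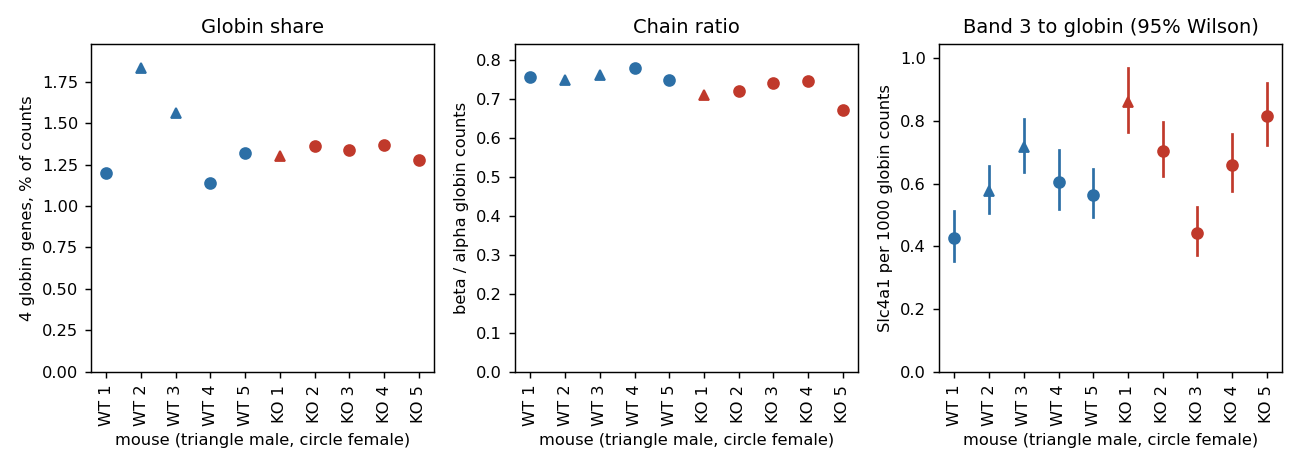
Per mouse (horizontal axis; WT blue, KO red; triangles male, circles female), the 4 globin genes as a percentage of counts, the ratio of beta to alpha globin counts, and Slc4a1 per 1000 globin counts with 95% Wilson intervals, all axes from 0. The globin share runs from 1.14 to 1.83% in WT and from 1.28 to 1.37% in KO mice, and the chain ratio from 0.749 to 0.78 in WT and from 0.673 to 0.748 in KO mice. Neither was tested by genotype.

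Across mice the members rose and fell together. Over the 15 pairs of members, Pearson's r of log2 CPM over the 10 mice ran from 0.463 for Hbb-bs with Slc4a1 to 0.982 for Hbb-bt with Alas2, and 13 of 15 pairs had an adjusted permutation p under 0.05 in a family of 19 relations. Alas2 and Hbb-bt lie on different chromosomes. Their r had a permutation p of 1e-05, the smallest that 100000 resamples can give (adjusted p = 0.00019), with Spearman's rho of 0.976 (adjusted permutation p = 0.00019). Hba-a2 with Hbb-bs, the most abundant alpha and beta genes, had r = 0.97 and rho = 0.927 (permutation p of 8e-05 and 0.00041, adjusted 0.000507 and 0.00389). Slc4a1 was the loosest member, with r of 0.463 to 0.757 with the others.

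Without the 2 mice farthest from the median of the first gene of a pair, 1 of 15 pairs kept an adjusted permutation p under 0.05, Hbb-bt with Alas2 at r = 0.961 (n = 8). The other pairs did not reach that threshold. The mice left out were WT replicate 2 with WT replicate 1, 3 or 4. How much of the loss came from fewer mice was not tested. Pearson's r fell in every pair but Hba-a1 with Slc4a1, although several r stayed high. Examples are 0.87 for Hba-a1 with Hba-a2, 0.794 for Hba-a1 with Alas2 and 0.783 for Hba-a2 with Hbb-bs. Hba-a1 and Hba-a2 are near-identical copies that can share reads, and the part of this in their r was not tested. Hbb-bs with Slc4a1 dropped from r = 0.463 to 0.0532 and Hbb-bs with Alas2 from 0.873 to 0.545, whereas Hba-a1 with Slc4a1 went from 0.667 to 0.741. As correlations of residuals after genotype and sex, 10 of 15 pairs had an adjusted permutation p under 0.05, with r from 0.223 to 0.98. The permutations shuffled residuals freely although the fit ties them to each other, so these p are approximate and may be too small. Values of CPM share a library total, and computing totals without the globin genes left 13 of 15 pairs.

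**Figure D4:**
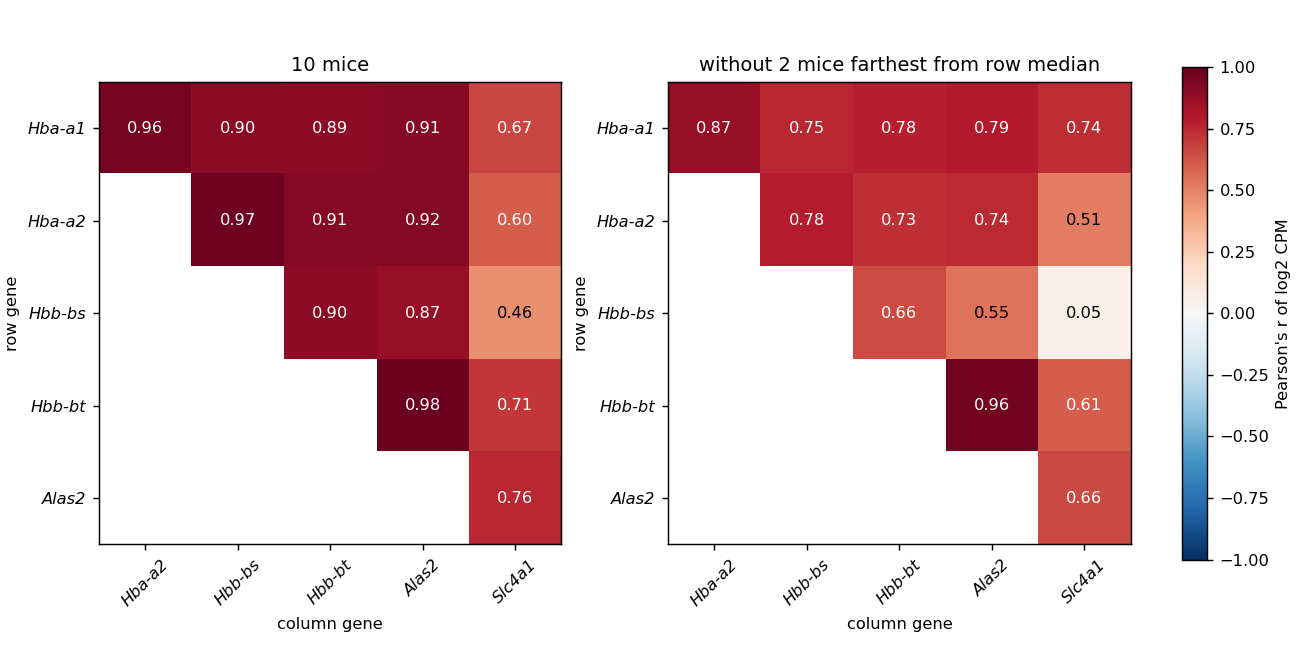
Pearson's r of log2 CPM for each pair of members over 10 mice (left) and without the 2 mice farthest from the median of the row gene (right), on a colour scale from -1 to 1. Hbb-bt with Alas2 is 0.98 and 0.96 in the 2 panels, whereas Hbb-bs with Slc4a1 goes from 0.46 to 0.05.

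Genes of other blood and vessel cells were set beside Hbb-bs. The platelet chemokine gene Ppbp had r = 0.666 and rho = 0.6 (permutation p of 0.024 and 0.0732, adjusted 0.0351 and 0.0928), which dropped to r = 0.241 without the 2 farthest mice. The neutrophil gene S100a8 had r = -0.221 and rho = -0.103 (permutation p of 0.559 and 0.784, adjusted 0.59 and 0.784). The B cell gene Cd79a had r = -0.132 and rho = -0.176 (permutation p of 0.694 and 0.63, adjusted 0.694 and 0.664), and the endothelial gene Cdh5 r = -0.322 and rho = -0.188 (permutation p of 0.376 and 0.608, adjusted 0.42 and 0.664). Without the 2 farthest mice these 3 stood at r = -0.347, 0.00373 and 0.129.

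Ordered by Pearson's r with the summed globin CPM over the 10 mice, with no test, Hba-a2, Hbb-bs, Hba-a1, Hbb-bt and Alas2 held ranks 1, 2, 4, 7 and 8 of 18024 genes, and Slc4a1 rank 813 (r = 0.581). The globin genes are part of that sum. The 10 closest other genes were Mkrn1 (r = 0.975), Apex2 (0.949), Gm10244 (0.93), Ftl2-ps (0.912), Ido1 (0.895), Fam220a (0.89), Mpig6b (0.885), Bpgm (0.88), Slc15a4 (0.879) and Cars (0.873). Bpgm makes 2,3-bisphosphoglycerate, which lowers the oxygen affinity of haemoglobin, and Mpig6b is a receptor of platelets and megakaryocytes. Some of these share sequence space with another gene: Apex2 spans Alas2 on the opposite strand, Gm10244 is annotated antisense to Mkrn1 over 576 bases, Ftl2-ps is a processed pseudogene of ferritin light chain, and Fam220a is annotated under 2 identifiers at 1 place. Reads can be shared between such genes, so these ranks are uncertain.

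The wider red cell and blood lists were read in the same fits. Of their 73 tested genes 0 were called between genotypes by edgeR, by DESeq2 or by limma-voom. Over all tested genes these tools called 4, 346 and 2, in that order. By sex edgeR and limma-voom each called 1 of the 73, beside 105 and 93 of all tested genes. DESeq2 called 2.42% of all genes by sex and 4 of the 73, of which 3 were higher in males. Tent5c was among those higher (DESeq2 adjusted p = 0.00318, edgeR adjusted p = 0.062), and the one lower was Retnlg (DESeq2 adjusted p = 0.00148). Among 10 other globins in the table the embryonic genes were near absence: Hbb-bh0, Hbb-bh1 and Hbb-bh2 had 0 counts in all 10 mice, which allows up to 0.103 to 0.143 CPM per mouse, and Hba-x and Hbb-y had at most 1 count in any mouse. Myoglobin (Mb), cytoglobin (Cygb) and neuroglobin (Ngb) passed the filter. By genotype only Ngb of these 3 had an unadjusted p under 0.05, beside 17% of all tested genes. It averaged 2.74 CPM in KO against 3.8 CPM in WT (log2 fold change -0.52, edgeR adjusted p = 0.171). By sex 0 of the 3 had such a p, beside 15.1% of all tested genes.

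Of 12 tested red cell membrane and cytoskeleton genes, 0 were called by genotype and 0 by sex, beside 0.0222% and 0.583% of all genes. At an unadjusted p under 0.05 in edgeR there were 1 by genotype and 2 by sex, beside 17% and 15.1% of all. Epb41, the protein 4.1 that links spectrin to the membrane, ranged over 225 to 244 CPM among males, above 162 to 219 CPM among females (difference 0.25 on the log2 scale, edgeR adjusted p = 0.17). Aqp1, a water channel of red cells that lung endothelium also makes, averaged 748 CPM in KO against 816 CPM in WT (edgeR adjusted p = 0.397).

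Among the 11 other enzymes and carriers of haem synthesis 0 were called by genotype or sex in edgeR. At an unadjusted p under 0.05, 2 of 11 were higher and 2 lower in males, beside 7.34% and 7.79% of all tested genes, and 3 of 11 were lower in KO, beside 8.04% of all. Those lower in KO include Urod at 36.1 against 39.7 CPM (edgeR adjusted p = 0.2) and Alad at 34.1 against 37.7 CPM (edgeR adjusted p = 0.272). Alas1, the housekeeping counterpart of Alas2, averaged 368 CPM in KO against 376 CPM in WT (edgeR adjusted p = 0.915), and 430 CPM among males against 347 CPM among females (edgeR adjusted p = 0.16). For this list the median log2 fold change by sex was -0.01, equal to that of all tested genes, against 0.32 for the 6 members.

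Of 12 tested erythroid regulators and reticulocyte genes 1 rose in males, where 0.583% of all genes were called in either direction. At an unadjusted p under 0.05 the list had 5 genes higher and 1 lower in males, beside 7.34% and 7.79% of all tested genes, with a median log2 fold change of 0.18. Tent5c ranged over 107 to 118 CPM among males, above 80.8 to 99.9 CPM among females (difference 0.3 on the log2 scale, edgeR adjusted p = 0.062). Trim10 ranged over 2.21 to 3.57 CPM among males, above 0.737 to 2.08 CPM among females (difference 0.88, edgeR adjusted p = 0.141). The one lower gene was Epor, the erythropoietin receptor, at 2.52 to 3.61 CPM among males, below 3.81 to 4.94 CPM among females (difference -0.52 on the log2 scale, edgeR adjusted p = 0.0949). By genotype 1 of 12 had an unadjusted p under 0.05, beside 17% of all tested genes. This was Trim10, at 1.29 CPM on average in KO against 2.18 CPM in WT (log2 fold change -0.59, edgeR adjusted p = 0.262). Klf1, the erythroid master regulator, did not pass the filter, at 2 to 7 counts per mouse.

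Of 13 tested genes of haemoglobin clearance and iron 0 were called by genotype or sex in edgeR. At an unadjusted p under 0.05 there were 1 by genotype and 2 by sex, beside 17% and 15.1% of all tested genes. Hp, the plasma protein haptoglobin that binds free haemoglobin, averaged 897 CPM in KO against 993 CPM in WT (edgeR adjusted p = 0.429). Hmox1, which breaks down haem, averaged 44.6 CPM among males against 36.0 CPM among females (difference 0.29 on the log2 scale, edgeR adjusted p = 0.149). Blvra, which acts on the biliverdin that haem breakdown leaves, averaged 15.9 CPM in KO against 17.8 CPM in WT (log2 fold change -0.22, edgeR adjusted p = 0.229).

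Platelet and megakaryocyte genes lay on the same side by sex as the members. All 12 tested genes had a log2 fold change above 0 in males, with a median of 0.51 beside -0.01 for all tested genes. Of these, 7 had an unadjusted p under 0.05, against 7.34% of all tested genes in that direction, and 0 were called by edgeR. Ppbp averaged 16.2 ± 3.52 CPM among males (n = 3) against 11.3 ± 3.18 CPM among females (n = 7), a difference of 0.58 on the log2 scale (edgeR adjusted p = 0.302). The summed platelet list spanned 88.7 to 120.0 CPM among males, overlapping the 75.3 to 109.0 CPM of the females, and its part in the sex difference of the members was not tested. By genotype 0 of 12 platelet and 0 of 10 neutrophil genes had an unadjusted p under 0.05, beside 17% of all tested genes. Neutrophil genes went both ways: of 10 tested, 3 were higher and 1 lower in males at an unadjusted p under 0.05, beside 7.34% and 7.79% of all tested genes, the last being Retnlg (log2 fold change -0.7, edgeR adjusted p = 0.0568). The summed neutrophil list spanned 95.3 to 141.0 CPM among males and 103.0 to 129.0 CPM among females.

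Without KO replicate 5, edgeR again called 1 of the list genes by sex and 0 by genotype. At an unadjusted p under 0.05 by sex, 7 of 12 platelet genes were then higher and 0 lower. The counts higher and lower were 5 and 1 of 12 erythroid and reticulocyte genes and 3 and 1 of 10 neutrophil genes. They were 3 and 0 of 12 membrane genes, 2 and 2 of 11 haem synthesis genes and 2 and 1 of 13 clearance genes. With all 10 mice 7.34% of all tested genes were higher and 7.79% lower, and the shares without KO replicate 5 are not reported here. Without that mouse Epor differed by -0.48 on the log2 scale, Trim10 by 1.01, Epb41 by 0.25, Alas1 by 0.3 and Hmox1 by 0.27.

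**Figure D5:**
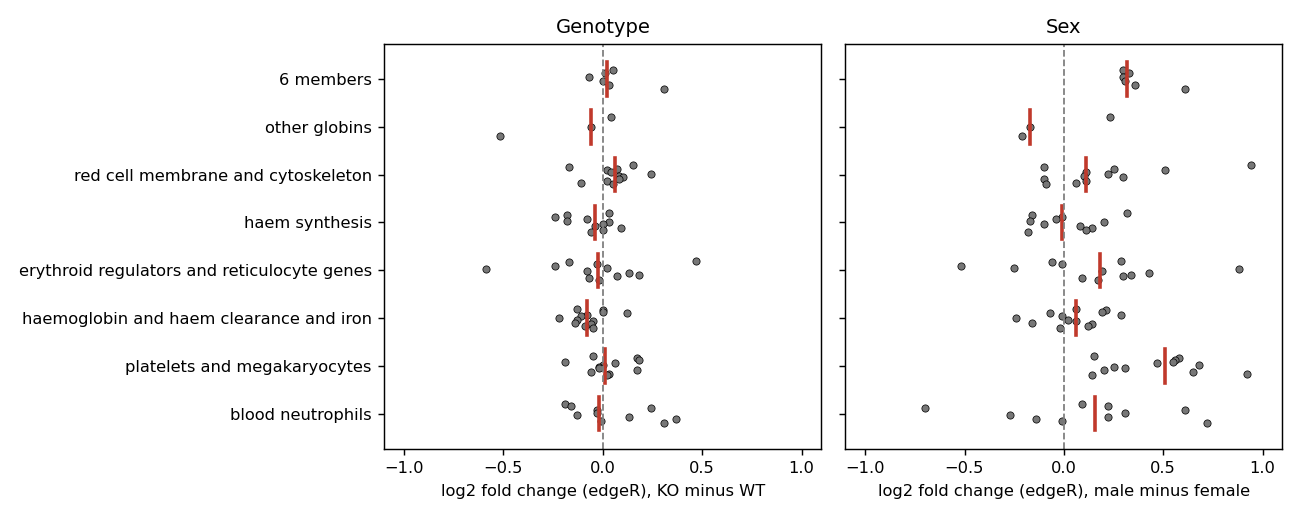
Log2 fold changes from the edgeR fit (horizontal axis) of every tested gene of the 6 members and of 7 gene lists (rows), by genotype on the left and by sex on the right, with red bars at the medians and a dashed line at 0. By sex the members lie between 0.3 and 0.61 and all 12 platelet genes above 0, while haem synthesis centres on -0.01.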

How the data were processed

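RNA of the right middle lung lobe of 10 mice was sequenced as single reads of 50 bases from stranded mRNA libraries, per the labels' protocols. The authors deposited 1 table of estimated counts per gene, not scaled between samples, and per the submitters' processing notes FastQC, MultiQC, STAR 2.6.0 and Salmon 0.9.1 and the names mm10 and GRCm38 were used, with no role or order given. The annotation and any filter were not given in the sources used here. Fractional values (farther than 0.01 from an integer) made up 30.1% of those above 0. All 10 columns belonged to 1 sample each, and 0 were left over.

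Identifiers were matched to GENCODE M21 (47281 of 47333). Counts were rounded, and library totals were 21357424 to 28321294. CPM used totals scaled by TMM (trimmed mean of M values), given as mean ± SD over mice; CPM per kilobase used the longest protein-coding transcript. Genes kept by filterByExpr on genotype (minimum count 10, minimum total 15) were fitted with edgeR 4.0.16 (R 4.3.3, quasi-likelihood, robust) on genotype and sex, and called at a Benjamini-Hochberg adjusted p under 0.05 over 18024 genes, two-sided. Correlations used log2 CPM with a prior count of 2 and two-sided permutation tests (scipy 1.17.1), enumerated over all orders where a mouse was left out, with Benjamini-Hochberg adjustment over 19 relations. Floors of 3 counts and Wilson intervals cover counting error only. The fit was tested on simulated data.

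The members, the 7 gene lists and the marker lists were chosen with earlier results of these data known. Text names the members, Bpifb1, of each list the called genes, up to 4 at an unadjusted p under 0.05 and the 3 most abundant, the 10 genes closest to summed globin, and Ppbp, S100a8, Cd79a and Cdh5; the lung markers, Xist, embryonic globins and Klf1 were named outside this rule. The list symbols Ahsp, Fam46c, Hbb-b1 and Hbb-b2 were not analysed here, and a few list genes within the naming rule are not reported here. Alternatives were DESeq2 1.42.0 (size factors; Wald test), limma-voom 3.58.1, other filters, covariates and scalings, copies summed, females alone and each mouse left out.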

Additional observations from a re-analysis of the deposited data

Results flagged for a closer look

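The B cell gene Cd79a measured 60.7 CPM in WT replicate 5 and 44.4 to 47.4 CPM in the other 4 WT mice. The gap to the nearest mouse was 0.815 of the group's range, above Dixon's critical value for 5 samples. This was 1 of 57 sets of values examined, of which chance alone flags about 1 in 20, or 2.85 sets.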

How the results depend on the processing

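No member was called between genotypes under any of the 21 alternatives per gene, but small differences changed sign. Without the sex covariate the log2 fold change was -0.04 for Hba-a1, -0.09 for Hba-a2 and -0.06 for Alas2, without a filter it was -0.0025 for Hba-a2, among females alone it was 0.10 for Hbb-bs and 0.09 for Hbb-bt (0.15 and 0.12 with KO replicate 5 dropped, added after seeing the data), and with DESeq2 size factors or its Wald test 0.0013 for Hbb-bt. With each mouse left out in turn it ran from -0.03 to 0.22 for Hba-a1, -0.05 to 0.16 for Hba-a2, -0.13 to 0.1 for Hbb-bs, -0.05 to 0.09 for Hbb-bt and -0.02 to 0.12 for Alas2. All sex differences of the members stayed above 0, and 4 members were called by DESeq2 and 1 with no filter, against 0. Genes called between genotypes numbered 4, against 346 by DESeq2, 2 by limma-voom, 50 with no filter, 2 among females with KO replicate 5 dropped and 2 to 18 with a mouse left out (18 without WT replicate 3; 2 without KO replicate 2, 4 or 5 or WT replicate 1). Genes called by sex numbered 105, against 436 by DESeq2, 197 with no filter, 41 with no genotype covariate and 0 to 195 with a mouse left out (0 without KO replicate 1, 46 without KO replicate 2, 43 without WT replicate 2, 195 without WT replicate 4). List genes called by sex went from 1 to 5 at an adjusted p under 0.1 and stayed at 1 without KO replicate 5, a setting also added later. Pairs of members with an adjusted permutation p under 0.05 numbered 13, against 1 without the 2 farthest mice. The r of Hbb-bs with S100a8 was 0.239 and with Cdh5 0.275 without WT replicate 2 (-0.511 to 0.239 and -0.669 to 0.275 over all mice left out), with Cd79a 0.0188 on residuals and 0.00373 without the 2 farthest mice, and with Cdh5 0.129 without them. The cause was not tested. No paired analysis was possible because replicate numbers follow sample order and pair no mice. Depth limits Slc4a1, at 112 to 282 counts.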
